A study of Mus musculus with 5 samples.

Results

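Integrins are the receptors by which a cell grips the matrix around it, and the 10 genes described here, Itga1, Itga2, Itga3, Itga5, Itga6, Itga7, Itga11, Itgb1, Itgb3 and Itgb5, each encode an integrin subunit. They are a named subset of the integrin family, chosen with earlier results of these data known, and the other subunit genes on the array are described further on. They were found on the arrays through the RefSeq accession of each probe. They had 13 of the 55664 probes, and they are 10 of the 20016 genes that could be named. Itga1, Itgb1 and Itgb3 had 2 probes each and the other subunits 1 each. For these 3 genes the brighter probe stands for the gene, and every probe is given.

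The RNA came from mouse tumour cell lines grown out of soft tissue sarcomas. The lines carry alleles in which doxycycline switches on the fusion EWS/ATF1, on a mixed C57/BL6, 129 and ICR background, and the control cultures carry the same alleles. There were 5 groups of 1 array each, namely control, low doxycycline and high doxycycline at 3 h, and high doxycycline and control at 48 h. The sources used here give neither the doxycycline concentrations nor any doxycycline in the control medium. They also do not tie an array to a tumour line, so lines and treatments cannot be told apart. All 9 mesenchymal markers, among them Vim, were well above background on all 5 arrays, and none of the 6 skeletal muscle markers was on any array. Of 10 Schwann and melanocyte markers 7 to 8 were, of 5 smooth muscle markers 3 to 4, and of 11 macrophage and leukocyte markers 5 to 10. Of 6 endothelial markers 2 to 3 were, and of 6 epithelial markers 2 to 4. These counts do not name a cell type.

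An integrin is a pair of an alpha and a beta subunit, which bind matrix proteins outside the cell and connect through talin and kindlin to actin inside it. The alpha subunits described here all pair with the beta 1 subunit. In these pairs alpha 1, alpha 2 and alpha 11 bind collagens, alpha 3, alpha 6 and alpha 7 bind laminins, and alpha 5 binds fibronectin. The beta 3 and beta 5 subunits pair with alpha V and bind vitronectin and other proteins with an RGD sequence. In sarcoma cells and fibroblasts these receptors carry adhesion, migration and survival signals from the matrix.

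The fusion keeps the DNA-binding part of ATF1, which recognises the cAMP response element, and the study's title names Fos, a subunit of the AP-1 factor. The start-site regions were therefore searched on both strands for the full cAMP response element (TGACGTCA), its core (TGACG, which every full element also holds) and the AP-1 site (TGANTCA). RefSeq start-site sequences of build GRCm38.p6, from 250 bases before to 50 after the start, were given for Itga1, Itga2, Itga3, Itga5, Itga11, Itgb1 and Itgb5, or 7 genes with 8 regions. None of the 8 held the full element, which is in 1.79% of all 32851 regions. The core was in 1 region, that of Itgb1, against 20.8% of all regions, and the AP-1 site in 1, at an internal start of Itga3, against 7.81%. The region of Itga11, the subunit with the largest difference below, is shown with those 2. Matches are in capitals, and a match or its absence describes only these letters in this window.
Itga11, plus strand, chr9:62677605-62677904: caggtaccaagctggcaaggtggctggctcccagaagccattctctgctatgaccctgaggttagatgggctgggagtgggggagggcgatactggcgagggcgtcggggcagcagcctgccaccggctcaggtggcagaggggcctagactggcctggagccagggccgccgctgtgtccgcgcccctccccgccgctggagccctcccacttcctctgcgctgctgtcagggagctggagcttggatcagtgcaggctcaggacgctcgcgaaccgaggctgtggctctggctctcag
Itgb1, plus strand, chr8:128685404-128685703, TGACG in capitals: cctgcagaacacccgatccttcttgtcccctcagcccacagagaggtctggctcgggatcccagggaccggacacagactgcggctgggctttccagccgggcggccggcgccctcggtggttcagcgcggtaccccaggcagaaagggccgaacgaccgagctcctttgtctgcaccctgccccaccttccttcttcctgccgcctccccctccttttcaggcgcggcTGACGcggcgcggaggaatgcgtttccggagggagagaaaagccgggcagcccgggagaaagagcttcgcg
Itga3, minus strand, chr11:95069149-95069448, TGANTCA in capitals: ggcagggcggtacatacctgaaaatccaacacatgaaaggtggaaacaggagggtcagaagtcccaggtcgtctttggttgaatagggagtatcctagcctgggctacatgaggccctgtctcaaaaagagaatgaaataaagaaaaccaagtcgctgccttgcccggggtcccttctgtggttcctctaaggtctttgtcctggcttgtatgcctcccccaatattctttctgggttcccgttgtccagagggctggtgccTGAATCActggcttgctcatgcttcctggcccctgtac

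Levels below are log2 of the background-subtracted signal after the 75th percentile of the same array was subtracted, so that a level of 0 is a signal at that percentile. They order the arrays for 1 probe and do not rank genes against each other. The 75th percentile itself was a signal of 725 for the control, 585 for low doxycycline and 556 for high doxycycline at 3 h, and of 420 for high doxycycline and 649 for the control at 48 h. Between 55.5% and 60.0% of probes were well above background on an array. All 13 integrin probes were well above background on all 5 arrays, except the Itga11 probe on the 48 h high-dose array. A difference was called at 2-fold (a log2 difference of 1) if both arrays were well above background. With 1 array per group no difference has a replicate check, and the ± values given are 1.96 times the scanner's own error, which leaves out the variation between cultures.

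**Figure D1:**
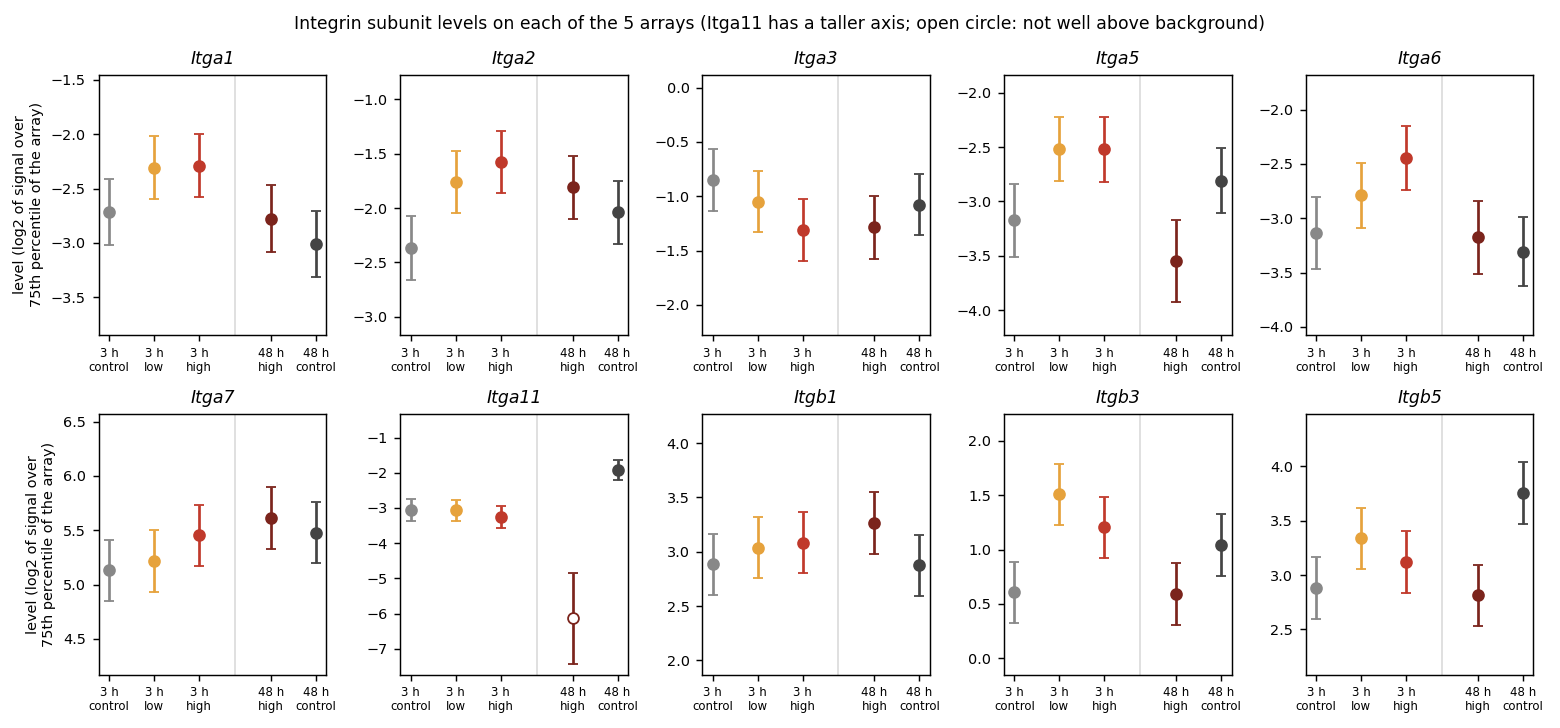
Level of each integrin subunit (log2 signal over the array's 75th percentile, brighter probe) on the 3 h arrays in order of dose, then on the 48 h high-dose and control arrays, 1 point per array with bars of 1.96 scanner errors. The other 9 panels span the same height and the Itga11 panel is taller; its open circle at -6.13 is the only point not well above background.

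At 3 h, 8 of the 10 subunits lay above the control at each dose by the brighter probes, each by less than 2-fold. A count of 0 called at 2-fold is near the share of all genes called, 3.30% of 14005 at the high dose and 1.37% of 14062 at the low dose, so it sets the subunits apart from no other genes. By its dimmer probe Itga1 was past 2-fold at both doses, as given further on. The median difference of the 10 was 0.37 at the high and 0.38 at the low dose, beside -0.01 and 0.02 over all measured genes. Itga3 and Itga11 were below 0 at both doses. The doses share their control array, which feeds into both sets of differences. At 1.5-fold, a count added after the values were seen, Itga2, Itga5, Itga6 and Itgb3 were higher at the high dose and Itga2, Itga5 and Itgb3 at the low dose, with none lower. Of all genes, 5.86% and 3.48% were higher at 1.5-fold at these doses.

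Among the collagen-binding subunits, Itga2 had levels of -2.37 in the control, -1.76 with low and -1.57 with high doxycycline. The difference from the control was 0.79 ± 0.41 at the high dose and 0.61 ± 0.41 at the low dose. Its 3 h levels followed the order of the doses, but the doses differed by only 0.18 ± 0.40. Itga1, whose product binds type IV and other collagens, had levels of -2.71, -2.31 and -2.29 in the same order. Both doxycycline arrays were above the control by about 0.4, at the edge of the scanner error. Itga11, a receptor for fibrillar collagens, had levels of -3.06, -3.07 and -3.25, which lay within the scanner error of each other.

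The laminin-binding subunits went different ways at 3 h. Itga6, which also pairs with the beta 4 subunit, had levels of -3.13 in the control, -2.79 with low and -2.45 with high doxycycline, a difference of 0.69 ± 0.44 at the high dose. Itga3 had levels of -0.85, -1.05 and -1.31 in the same order, the reverse sequence, with a difference of -0.46 ± 0.40 at the high dose. Itga7, known as the laminin receptor of muscle fibres, had levels of 5.13, 5.22 and 5.45, within the scanner error of each other, on arrays where the skeletal muscle markers were below background. Its signal on the 5 arrays ran between 20528 and 28935.

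The fibronectin receptor subunit Itga5 stood at -3.17 in the control and at -2.52 at both doses. The difference was 0.65 ± 0.45 with high and 0.66 ± 0.45 with low doxycycline, so that both doxycycline arrays lay above the control by the same amount. Fn1, which encodes its ligand fibronectin, had levels of 6.25 in the control, 6.75 with low and 6.86 with high doxycycline.

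Of the beta subunits, Itgb3 had the largest 3 h difference of the family by the brighter probes. Its levels were 0.61 in the control, 1.51 with low and 1.21 with high doxycycline, and the differences from the control were 0.90 ± 0.40 and then 0.60 ± 0.40. The low-dose array was thus the highest of the 3, although the doses differed by only -0.30 ± 0.40. Itgb5 showed the same sequence, with levels of 2.88, 3.34 and 3.12 and a low-dose difference of 0.46 ± 0.40 beside a high-dose difference of 0.24 ± 0.40. Itgb1, the shared partner of the alpha subunits, had levels of 2.88, 3.04 and 3.08 and stayed within the scanner error. Itgav, which encodes the alpha V partner of the beta 3 and beta 5 subunits, had levels of 0.24, 0.52 and 0.88.

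High minus low differences lay between -0.30 for Itgb3 and 0.34 for Itga6, with a median of 0.01. None of the 10 exceeded 1.96 scanner errors. At 2-fold 0 of 10 were called, near the 2.18% of 14349 genes that were.

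**Figure D2:**
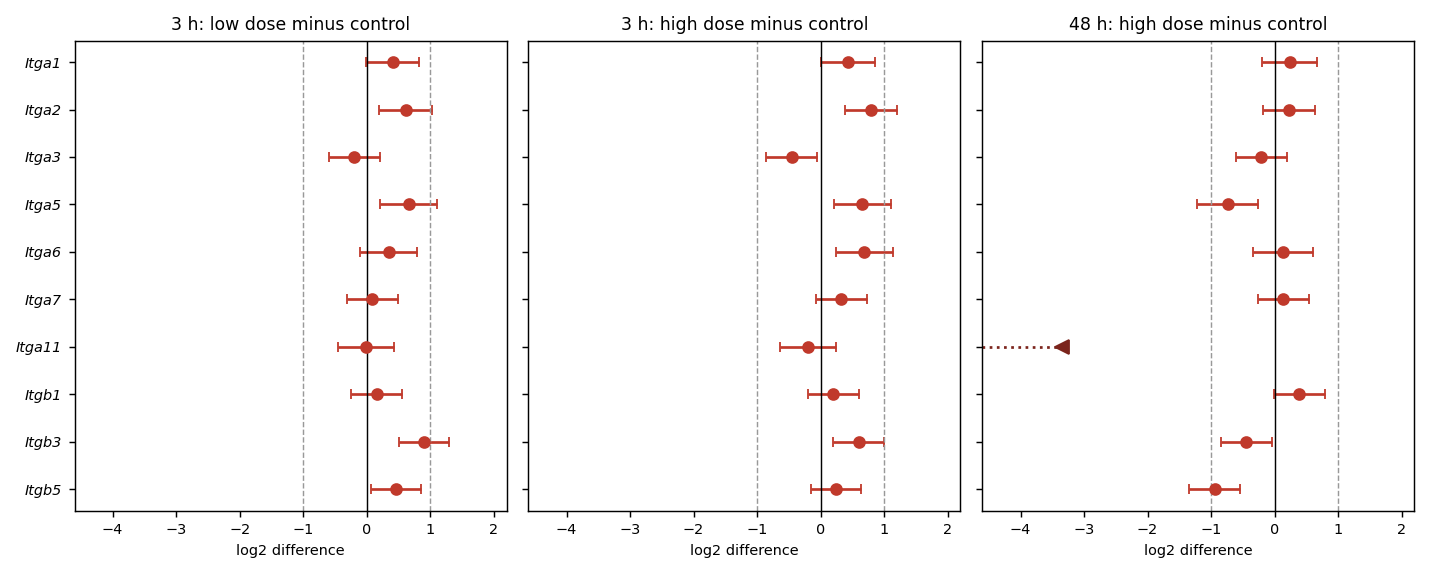
Log2 difference from the control of the same time for each subunit at the 3 h low dose, 3 h high dose and 48 h high dose, with bars of 1.96 scanner errors and dashed lines at 2-fold. No circle passes the dashed lines; the arrow for Itga11 at 48 h marks a bound of -3.35, since its high-dose signal was not well above background.

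The 3 h differences depended on which control array was used. The 48 h and 3 h control arrays differed by 2-fold in 1 of the 10 subunits, Itga11, with 3.87% of 14018 genes called between them. Itgb5 was at 3.76 on the 48 h and 2.88 on the 3 h control array (0.88 ± 0.40), and Itgb3 at 1.04 and 0.61 (0.43 ± 0.40). Against the 48 h control the 3 h high-dose differences of Itga2, Itga5 and Itgb3 became 0.47, 0.29 and 0.17, and that of Itga6 became 0.86. Those of Itga2, Itga5 and Itgb3 at the low dose became 0.28, 0.29 and 0.47. Itga11 was then called lower, at -1.33 for the high and -1.14 for the low dose. Itgb5 changed sign, with -0.63 at the high and -0.42 at the low dose. So did Itga7, at -0.03 and -0.26 in that order, and Itga3 at the low dose, at 0.03. The count of subunits above the control at 3 h therefore also depended on the control array.

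After 48 h of the high dose, Itga11 was below the reach of the array. Its signal was 5.99 at the high dose, not well above background, against 171 in the 48 h control (levels -6.13 and -1.92). The plain difference from the 48 h control was -4.21 ± 1.32, with the dim signal taken as measured. With the lowest signal well above background on the high-dose array in place of that signal, Itga11 was 10.2-fold lower. This bound leaves out the scanner error, so it is not a strict minimum. The 3 h arrays lay between these, at levels from -3.25 to -3.06. Against the 3 h high-dose array the same kind of bound was 4.07-fold lower, beside a plain difference of -2.88 ± 1.33. The 48 h control was itself higher than the 3 h control by 1.13 ± 0.43, so part of the distance at 48 h lies between the controls. That call between the controls was lost with arrays centred on their median (0.99) and with normexp background correction (0.78). Normexp was run with an added offset of 50, which by itself shrinks differences between dim signals. Among all genes 414 had a lower bound of 2-fold or more in this comparison and 304 a higher one, beside 20.0% of the 13739 genes measured on both arrays that were called. On the same 48 h high-dose array 6 of 9 mesenchymal markers were called lower and all 5 proliferation markers higher, as given with the ligand genes, and their part in the Itga11 difference was not tested. With 2 arrays, fewer cells that express a gene and less RNA per cell cannot be told apart.

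Of the other 9 subunits 0 were called at 48 h, beside 10.1% of measured genes 2-fold lower and 9.94% higher. With 9 genes such a count is close to those shares and was not tested against them. Itgb5 came nearest, with levels of 2.81 at the high dose and 3.76 in the control, a difference of -0.94 ± 0.40. Its high-dose level was near that of the 3 h control, 2.88, and the 48 h control was the array that stood apart. Itga5 had levels of -3.55 at the high dose and -2.81 in the control (-0.74 ± 0.48), and was the subunit called between the 48 h and 3 h high-dose arrays, at -1.03 ± 0.48, where 17.6% of 13772 genes were called. Itgb3 was at 0.59 at the high dose and 1.04 in the control (-0.45 ± 0.40). These 3 subunits lay above their control at 3 h and below it at 48 h, though Itgb5 at the 3 h high dose was within the scanner error. With normexp background correction, chosen after the data were seen, the 48 h difference of Itga5 was -0.12 and that of Itga11 -1.31. The call of Itga5 between the high-dose arrays was lost at -0.44. This setting added an offset of 50 to each signal, which by itself shrinks differences between dim signals. The processed signal of Itga5 was 35.9 on the 48 h high-dose array.

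Itgb1 was at 3.27 at the high dose and 2.87 in the control at 48 h (0.39 ± 0.40). The laminin and collagen receptor subunits Itga7 (5.61 at the high dose and 5.48 in the control), Itga6 (-3.18 and -3.31 in that order), Itga2 (-1.81 and -2.04) and Itga1 (-2.78 and -3.01) all lay within the scanner error. Itga3 was likewise at -1.29 at the high dose and -1.08 in the control. The median of the 9 measured subunits was 0.13, beside 0.05 over all genes, and 2 of the 9, Itgb5 and Itga5, were lower at 1.5-fold, where 19.3% of genes were. The median turned to -0.21 with quantile normalisation, under which Itgb5 was called.

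A limma fit took the 4 control and high-dose arrays together, with terms for time and dose, which leaves 1 residual degree of freedom. It called 0 of the 10 subunits and 0 of 14601 genes at an adjusted p of 0.05. At an unadjusted p under 0.05 it had 0 subunits and 506 genes, or 3.47%. The adjusted p of the subunits ran from 0.884 to 0.988. With all 5 arrays and a further term for the low dose, limma also called 0 subunits and 0 of 14764 genes, with 512 genes at an unadjusted p under 0.05. The estimate for Itga11 was -2.20 (SE 1.10), with its dim value taken as measured, and it lay below the control at both times. That for Itga2 was 0.51 (SE 0.37), above the control at both times. For Itga5 it was -0.04 (SE 0.53), because the differences at the 2 times had opposite signs, which this fit counts as error.

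The genes with 2 probes showed how far a value can rest on the probe. For Itgb1 the probes moved together within 0.2 in each comparison with a control. The dimmer probe had levels of 1.40, 1.61 and 1.72 on the 3 h arrays in order of dose and of 1.54 and 1.32 on the 48 h high-dose and control arrays. For Itga1 the dimmer probe had levels of -4.17, -2.46 and -2.45 at 3 h in that order, and of -3.13 at the high dose and -2.07 in the control at 48 h. By it Itga1 was higher by 1.71 ± 0.53 at the high dose and by 1.70 ± 0.53 at the low dose at 3 h, and at -1.06 ± 0.44 at 48 h, all past 2-fold. The probes of Itga1 thus differed mainly on the control arrays, where the dimmer probe lay lowest at 3 h and highest at 48 h, while the brighter probe stayed within 0.73 over all arrays.

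For Itgb3 the probes went the same way at 3 h and opposite ways at 48 h. The dimmer probe had levels of -3.17, -2.67 and -2.67 on the 3 h arrays in order of dose, with differences from the control of 0.49 ± 0.43 for low and 0.50 ± 0.43 for high doxycycline. At 48 h it was at -1.52 at the high dose and -2.73 in the control, a difference of 1.21 ± 0.41, against -0.45 ± 0.40 for the brighter probe. The direction of Itgb3 at 48 h is therefore not settled by these arrays. Both Itgb3 probes carry the same RefSeq accession, and their sequences were not analysed here.

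**Figure D3:**
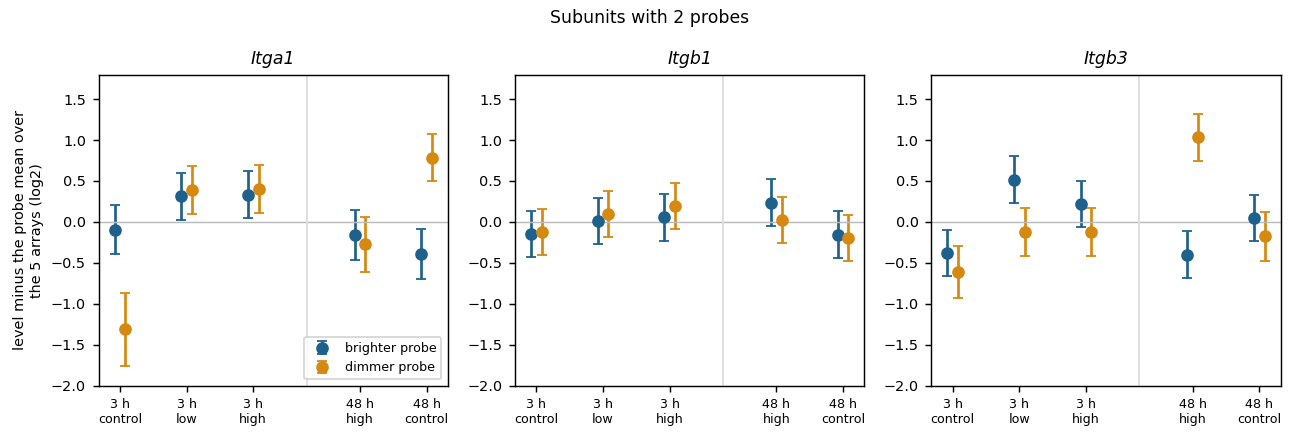
Level of the brighter and the dimmer probe of Itga1, Itgb1 and Itgb3 on each array, as the distance from the mean of that probe over the 5 arrays (log2), with bars of 1.96 scanner errors. The Itgb1 probes overlap throughout, the Itga1 probes part on both control arrays, and the Itgb3 probes part at the 48 h high dose and at the 3 h low dose.

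Of 14 other integrin subunit genes on the array, 10 were measured on both arrays at 3 h of the high dose and 0 were called. Between the doses at 3 h 1 of 10 was called, Itga4, higher by 1.11 at the high dose, beside 2.18% of all genes. At 48 h, 3 of 8 were 2-fold higher and 1 lower, with a median of 0.21, and 2 more were lower and 2 higher as bounds. Of all 13739 genes measured on both arrays 9.94% were higher and 10.1% lower, and 304 and 414 more had such bounds. Itga9, whose product pairs with beta 1, was at 1.67 at the high dose and -0.52 in the control. Itgb2 and Itgb7, beta subunits of leukocyte integrins, were higher by 1.75 and 1.68. Itgb2 was at -2.71 at the high dose and -4.45 in the control, and Itgb7 at 6.81 and 5.13. On the 3 h arrays Itgb7 already had levels from 5.69 to 6.18. Of the alpha partners of beta 2, named after their values were seen, Itgam and Itgal did not pass 2-fold. Itgam was at 4.16 at the high dose and 4.68 in the control, and Itgal at -3.14 and -3.40 in that order. Itgad was not well above background on any array, and Itgax is given below. Itga4, which pairs with beta 1 or beta 7, was lower by 2-fold or more, at -1.63. Itga8, a further partner of beta 1, resembled Itga11, with a bound of 17.8-fold lower. Its levels were -7.15 at the high dose and -1.13 in the control. Itga2b, the platelet subunit, was 4.14-fold lower by its own dim signal, taken as measured. Itgax, a further alpha partner of beta 2, of dendritic cells and macrophages, was higher as a bound of 5.19-fold. Itgb6, an epithelial subunit, was higher as a bound of 2.32-fold. On the 48 h high-dose array 10 of 11 macrophage and leukocyte markers were well above background, against 5 in the 48 h control and 5 to 9 on the 3 h arrays. Their summed level was 5.42 at the 48 h high dose, against 3.04 in its control, and 2.72 to 2.78 on the 3 h arrays. This sum rests mainly on Csf1r, which alone was at 5.30 at the 48 h high dose and 2.89 in its control. Of 5 such markers measured on both 48 h arrays 4 were called higher, with a median of 1.42, beside 9.94% of all genes. Ptprc, the common leukocyte antigen, was not well above background on either 48 h array, and the part of these markers in the values of Itgb2, Itgb7 and Itgax was not tested.

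Of 27 genes for integrin ligands measured on both 48 h arrays, 16 were 2-fold lower and 2 higher at the high dose, beside 10.1% and 9.94% of all genes. Their median was -1.29, beside 0.05 for all genes. The largest differences were in Postn, encoding periostin, at -5.58, Thbs1, encoding thrombospondin 1, at -4.16, the laminin chain gene Lamb3 at -3.66 and the collagen chain gene Col6a1 at -3.36. The fibrillar collagen genes Col1a1 and Col3a1, named after their values were seen because alpha 11 binds such collagens, were at -2.01 and -3.17. The laminin chain gene Lama4 was lower as a bound of 9.95-fold. Edil3, an RGD protein bound by alpha V integrins, and the laminin chain gene Lama2 were dim at the high dose. By that dim signal, taken as measured, they were 85.0-fold and 4.84-fold lower. Fn1 was at 6.31 at the high dose and 7.02 in the control. The mesenchymal markers, which share Col1a1 and Col1a2 with this list, had a summed level of 6.60 at the high dose and 8.10 in the control. That sum rests mainly on S100a4, at 4.85 at the high dose and 7.23 in the control, and on Vim, at 5.70 and 6.52. Of the 9 mesenchymal markers 6 were called lower and 9 were lower at 1.5-fold, with a median of -1.52. Of all genes 10.1% were called lower and 19.3% were lower at 1.5-fold. All 5 proliferation markers were called higher, beside 9.94% of all genes. They lay between 9.46-fold for Cdk1 and 116-fold for Mki67. Their summed level was 5.54 at the high dose and 0.42 in the control. Of 7 genes measured on both 48 h arrays from the Schwann and melanocyte list, 2 were 2-fold lower and 0 higher. The median of these 7 was -0.21, with 3 above 0 and 4 below. Of all genes 10.1% were 2-fold lower and 9.94% higher. The largest difference among the 7 listed genes was in Ngfr, a nerve growth factor receptor gene, at 87.4-fold lower. These differences stand on the same array as those of the ligand genes and Itga11, and their part in them was not tested. At 3 h of the high dose 3 of 30 ligand genes were higher and 1 lower, with a median of 0.33, beside 1.85% of all genes higher and 1.45% lower.

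Focal adhesion genes connect integrin tails to actin. On the 48 h high-dose array 5 of 31 measured genes were 2-fold lower and 2 higher (median -0.24), beside 10.1% lower and 9.94% higher of all genes. As a bound 1 more, the tensin gene Tns3, was 8.31-fold lower, where 414 of all genes were lower by such a bound of 2-fold or more. Vcl, encoding vinculin, was at -2.04, Parva, encoding parvin, at -1.64 and the tensin gene Tns1 at -1.21, and Ptk2b, a relative of focal adhesion kinase, was at 1.79. At 3 h Vcl had levels of 1.45 in the control, 2.69 with low and 2.79 with high doxycycline. It was called higher at both doses, by 1.24 and 1.34, and Nedd9, a docking protein, by 1.32 at the high dose. In all, 2 of 32 focal adhesion genes were higher and 0 lower at the 3 h high dose, beside 1.85% of all genes higher.

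**Figure D4:**
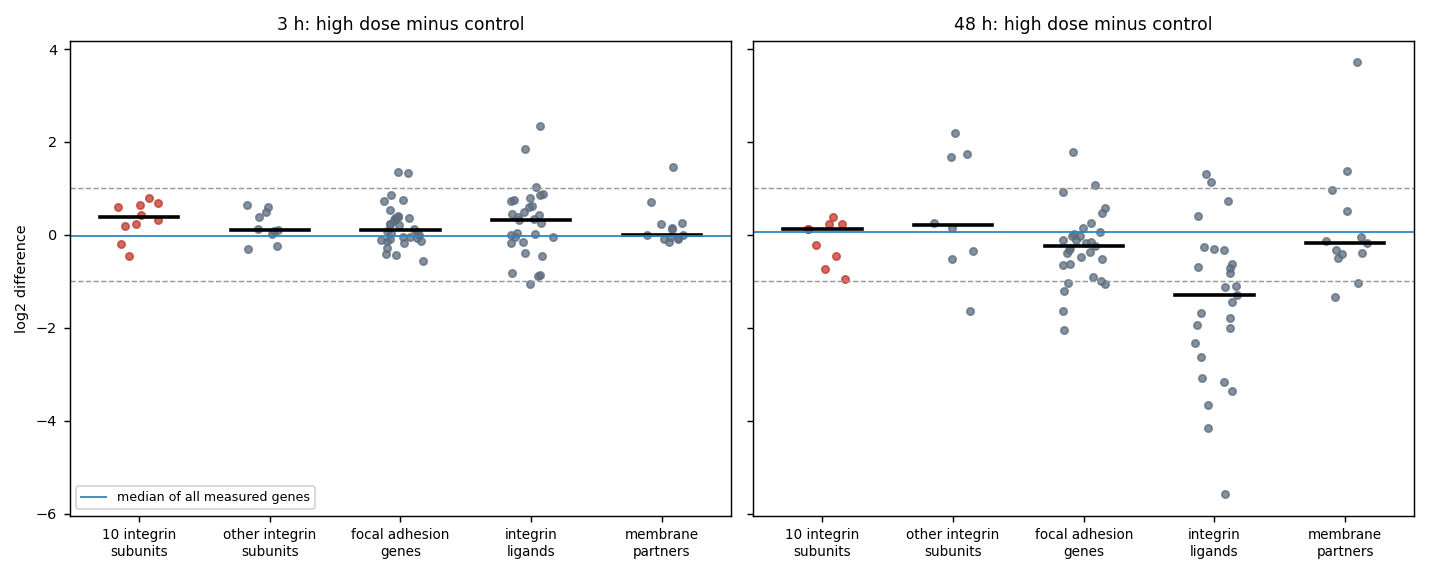
Log2 difference between high dose and control at 3 h (left) and 48 h (right) for the genes of 5 groups measured on both arrays, with a black bar at each median, a line at the median of all measured genes and dashed lines at 2-fold. At 48 h the median of the ligand genes is at -1.29 and that of the 10 subunits, of which 9 could be plotted, at 0.13.

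The genes whose pattern over the 5 arrays lay nearest were sought for the subunits with the widest spread, among 13472 genes well above background on all arrays. The measure was the Euclidean distance between levels centred on their mean. None is given for Itga11, the widest, because its 48 h high-dose level is not well above background. For Itga5 (spread 1.03) the nearest by distance were the inositol phosphatase gene Inpp5a (0.16), the invadopodium scaffold gene Sh3pxd2a (0.17) and Sipa1l3 (0.18). For Itgb5 (spread 0.94) they were Rassf5 (0.09), the chemokine gene Cx3cl1 (0.22) and the mitochondrial peptidase gene Immp2l (0.22). With 5 arrays such likeness is a description of these arrays only.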

How the data were processed

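Each sample was 1 one-colour Agilent array. Per the file headers, the deposited intensity is a processed signal from which the software had removed background and spatial trend array by array, with no scaling between arrays; the submitters' processing notes name Agilent Feature Extraction 10.7.3.1. The headers give build mm9, so RefSeq GRCm38.p6 served only for gene names and start-site sequences. Control spots and 111 to 146 outlier spots per array were left out, log2 intensity minus the 75th percentile of the array was taken, and spots of a probe were averaged. The percentile was taken over spots. No spot was saturated. A probe was taken as above background if a share of 0.5 or more of its spots had that mark. In all, 26408 probes received 1 symbol and 29256 none. Where a gene was dim on 1 array, the bound used the higher of its own signal and the lowest signal well above background there. A bound leaves out the scanner error, so it is not a strict minimum. Limma 3.58.1 in R 4.3.3 (eBayes with intensity trend, Benjamini-Hochberg over genes above background on 2 or more of the 4 arrays) fitted 4 arrays, with a fit of all 5 as an alternative, after a check on simulated data. The number of arrays limits the precision. The median SD between the spots of a probe spotted 10 times was 0.0603 to 0.0639 per array. The series' value table matched these signals within 0.001 on the log2 scale for at least 99.4% of probes, so it is linear and unscaled; its column medians were 38.3, 32.5, 31.9, 37.7 and 23.9 for the 3 h control, low and high dose and the 48 h control and high dose. Alternatives covered background, scaling, probe choice, the dim filter and the control array. All subunits are named; of other lists at most the 4 largest called differences per comparison. Members and lists were chosen with earlier results of these data known.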

Additional observations from a re-analysis of the deposited data

Results flagged for a closer look

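The difference between high dose and control had opposite signs at 3 h and 48 h, each beyond 1.96 scanner errors, in 2 subunits. For Itga5 it was -0.74 at 48 h and 0.65 at 3 h, a gap of -1.39. Its 48 h difference was -0.12 with normexp and -0.37 against the 3 h control. For Itgb3 it was -0.45 at 48 h and 0.60 at 3 h, a gap of -1.05 that rests on the brighter probe, since the dimmer probe was at 1.21 at 48 h and 0.50 at 3 h. Against the 48 h control the 3 h difference became 0.29 for Itga5 and 0.17 for Itgb3. Whether the effect differs between the times was not tested, because 1 array per group leaves no degree of freedom for it.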

How the results depend on the processing

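No paired analysis was possible because each group has 1 array, and for the same reason no replicate could be left out. Normexp on mean spot signals was not run because the files used hold median spot signals, which were taken in its place after the files were seen; the dimmest probe was likewise added later. Limma called 0 subunits under each of its 9 alternatives, and 4 of 20016 genes without the dim filter in place of 0. Counts of subunits called at 2-fold moved as follows. With the mean of all probes or the dimmest probe, Itga1 was called at 3 h, giving 1 in place of 0 at each dose. Against the 48 h control, Itga11 was called lower, giving 1 in place of 0 at each 3 h dose. At 48 h of the high dose the count was 1 with quantile normalisation (Itgb5), 1 without the dim filter (Itga11) and 2 with the dimmest probe, in place of 0. Between the controls it was 0 with arrays centred on the median or normexp and 2 with the dimmest probe, in place of 1. Between the high-dose arrays it was 0 with normexp and 2 with the dimmest probe or without the filter, in place of 1. Causes were not tested. No called value changed sign, but only 1 was called between the controls and 1 between the high-dose arrays. Uncalled values did change sign, among them 48 h differences between high dose and control. That of Itga1 went from 0.24 to -0.41 with the mean of all probes and -1.06 with the dimmest probe. That of Itgb3 went from -0.45 to 1.21 with the dimmest probe. Under normexp, Itga11 at 48 h was at -1.31 and Itga5 at -0.12, where the added offset of 50 by itself shrinks differences between dim signals. Centring on the median shifted all genes at 3 h of the high dose to a median of -0.13, and the share of calls that were higher to 40.6% in place of 56.1% there, 47.4% in place of 57.5% at the low dose and 47.4% in place of 64.8% between the controls. The direction of Itga7 at 48 h turned to -0.21 with quantile normalisation.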

Other observations

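Of 13 genes for membrane proteins that sit beside integrins, 2 were 2-fold higher and 2 lower after 48 h of the high dose, near the 9.94% higher and 10.1% lower of all genes. Their median was -0.17, beside 0.05 over all genes. Plaur, the urokinase receptor, which associates with integrins, was at 0.32 at the high dose and -3.39 in the control, a difference of 3.71. The heparan sulphate proteoglycan gene Sdc1 was higher by 1.38, and its relative Sdc4, found in focal adhesions, was at -1.04. The tetraspanin gene Cd82 was at -1.33. Cd36, a thrombospondin receptor that macrophages and fat cells also express, was higher as a bound of 5.16-fold. Of 11 macrophage and leukocyte markers, 10 were well above background on the 48 h high-dose array, all but Ptprc, against 5 in its control. At 3 h the counts were 9 with low doxycycline, 8 in the control and 5 with high doxycycline. Cd36 was not well above background on any 3 h array, with levels from -7.75 to -7.42. The part of these markers in the Cd36 value was not tested. At 3 h Plaur was the only member called at either dose, with levels of -3.02 in the control, -0.18 with low and -1.55 with high doxycycline.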
